A study of Mus musculus with 2 samples.

Results

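The T cells described here are 97 of 1285 CD45+ cells from mouse cochleae, profiled by droplet single-cell RNA sequencing in a study of the cochlear immune response to noise. CD45 is the surface phosphatase carried by leukocytes, and living CD45+ cells were sorted after the cochleae of 6 mice per condition had been pooled and digested with Accutase. The 4 pools were a sham control and mice at 3, 7 and 14 days after noise. Each pool was marked by its own hashtag antibody against MHC class I and CD45, and all were sequenced in 1 library. The labels call the control sham treated in one place and untreated in another. Mouse strain, age, sex and noise level are not given in the sources used here.

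T cells were selected on measured RNA. A cell qualified when it held at least 200 genes, at most 10% mitochondrial counts and 1 clear hashtag, with at least 3 molecules (unique molecular identifiers, UMIs) of Cd3e, Cd3d and Cd3g together. It also had to hold fewer than 3 UMIs of the B cell gene Cd79a, and fewer than 300 UMIs of the neutrophil genes S100a8 and S100a9 per 10000. The sham pool gave 33 T cells, day 3 gave 34, day 7 gave 19 and day 14 gave 11. At the lower edge of the gate, 5 cells stood at 3 CD3 UMIs and 5 cells just outside at 2, whereas 70 T cells held 10 or more. The neutrophil ceiling fell in a gap: the highest value inside was 145 S100 UMIs per 10000 and the lowest outside was 392. There is 1 pool per condition, so no difference between pools has a p-value. Every interval below is a 95% interval of counting error alone, which covers neither differences between mice nor those between the few cells of a pool. The 3 days share the sham pool, so a direction that returns on several days is no independent repeat.

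T cells recognise peptides or other ligands through a receptor of 2 variable chains, either alpha with beta or gamma with delta, which signals through the invariant CD3 chains. CD4 and CD8 mark alpha beta T cells that read MHC class II and class I. Naive T cells circulate through blood and lymph nodes, memory T cells may settle in tissue, and gamma delta T cells of barrier tissues can release interleukin 17 without prior priming. The healthy cochlea is known to hold few lymphocytes beside its resident macrophages.

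Cd3d, Cd3e and Cd3g encode the delta, epsilon and gamma chains of CD3 and lie side by side on chromosome 9. On GRCm38 with GENCODE vM21, Cd3g spans chr9:44969572-44980431 on the minus strand, Cd3d spans chr9:44981786-44987339 on the plus strand and Cd3e spans chr9:44998740-45009627 on the minus strand. The 200 bases before each RefSeq start are printed because these 3 genes define the cells, and because Cd3d was also counted outside T cells (below). The sequences are RefSeq's, from GRCm38.p6, written 5′ to 3′ on the strand of the gene, and capitals mark GGAA or its reverse complement TTCC, the core bound by ETS factors. The windows are chr9:44980432-44980631 for Cd3g, chr9:44981586-44981785 for Cd3d and chr9:45009612-45009811 for Cd3e.
Cd3g: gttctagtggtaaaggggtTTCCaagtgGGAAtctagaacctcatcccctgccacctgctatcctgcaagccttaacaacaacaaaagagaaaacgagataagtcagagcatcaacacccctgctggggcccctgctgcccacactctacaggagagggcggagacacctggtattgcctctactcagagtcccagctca
Cd3d: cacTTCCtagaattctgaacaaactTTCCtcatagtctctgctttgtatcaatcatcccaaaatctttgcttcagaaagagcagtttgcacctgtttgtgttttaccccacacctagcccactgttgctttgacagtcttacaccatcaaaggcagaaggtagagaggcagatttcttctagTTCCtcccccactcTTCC
Cd3e: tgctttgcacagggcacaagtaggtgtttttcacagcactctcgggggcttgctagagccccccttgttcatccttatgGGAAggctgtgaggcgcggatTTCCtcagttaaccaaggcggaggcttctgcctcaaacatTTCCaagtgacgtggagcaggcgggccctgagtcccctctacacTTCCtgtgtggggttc
The core occurred 2 times before Cd3g, 4 times before Cd3d and 4 times before Cd3e, over both strands. It is a common run of letters: 89.0% of 32817 RefSeq promoters of the same length held at least 1 copy. The letters TTGCNNAA, part of the C/EBP consensus of myeloid factors, occurred in none of the 3 windows and in 7.48% of all promoters.

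Of the 97 cells, 82 held all 3 CD3 genes, which are the genes of the gate. The gate was checked on receptor genes that took no part in it. Trac, the constant gene of the alpha chain, had 326 UMIs in 73 T cells (75.3%, interval 65.5 to 83.5). Trbc2, a constant gene of the beta chain, was found in 88 T cells (90.7%), and Trdc, the constant gene of the delta chain, in 26 (26.8%). Trbc1 and Trbc2 are nearly identical, so the split of reads between the pair is uncertain.

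**Figure D1:**
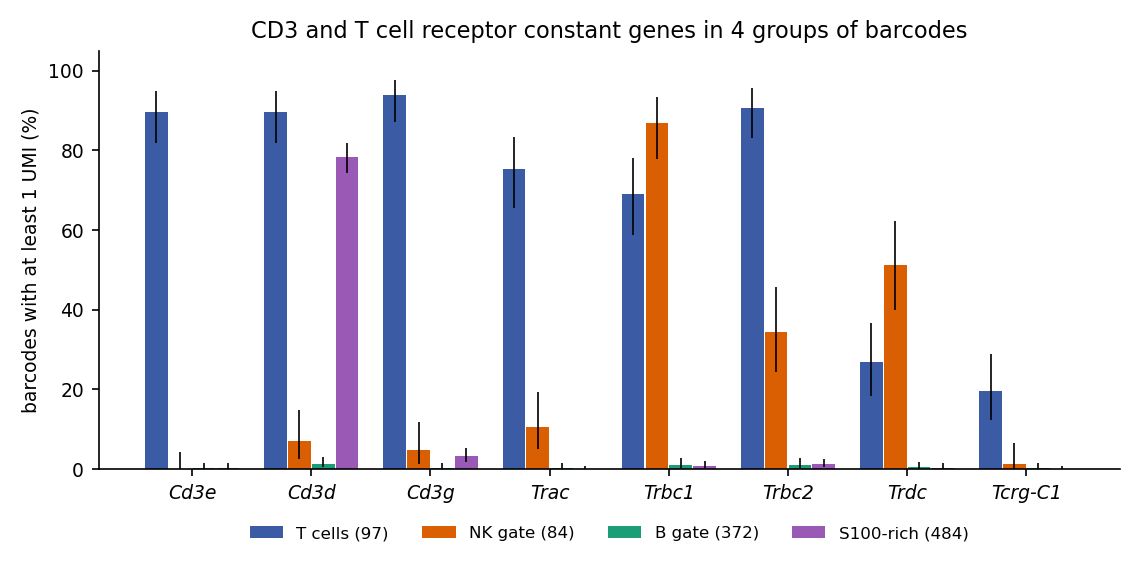
Bars show the share of barcodes (percent) with at least 1 UMI of 8 receptor genes in T cells (97), NK gate cells (84), B gate cells (372) and S100-rich barcodes (484), with exact 95% counting intervals as lines. The CD3 genes chose the T cells and, through them, which cells were left to the other gates. Trac stands highest in T cells (75.3%), Trdc and Trbc1 also in NK gate cells, and Cd3d also in S100-rich barcodes (78.3%).

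Natural killer (NK) cells and B cells of the same pools were gated for comparison, by at least 3 UMIs of Ncr1, Klrb1c and Klre1 together or by at least 3 of Cd79a. Both gates took only cells that had not passed as T cells, so few CD3 UMIs there follow from the selection. As a description, Cd3e was found in 0 of 84 NK gate cells and in 1 of 372 B gate cells. Trac, which the gates did not use, was found in 9 NK gate cells (10.7%) and 1 B gate cell. Trdc stood in another order, with UMIs in 43 NK gate cells (51.2%) and in 2 B gate cells, so Trdc alone did not set T cells apart from NK cells here. Trbc1 was likewise found in 73 NK gate cells (86.9%). Median depth was 6788 UMIs in T cells, 6798.5 in NK gate cells and 5747.5 in B gate cells.

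Cd3d was counted far outside the T cells. Among 484 barcodes rich in S100a8 and S100a9, Cd3d had UMIs in 379 (78.3%), against Cd3g in 16 (3.31%), Cd3e in 2 and Trac in 0. Putting 3 counts in place of 0 allows a share of up to 0.620% (exact upper limit 0.759%), and this limits barcodes with a UMI, not cells that express the gene. The share with Cd3d was alike in the 4 pools, at 79.7% in sham, 78.5% on day 3, 79.2% on day 7 and 75% on day 14. B gate cells, at 1.34%, did not show it. With Cd3d, 248 S100-rich barcodes reached a CD3 sum of 3, and the neutrophil ceiling alone kept 244 of them out of the T cells. The comparison of Cd3d with Cd3e and Cd3g in S100-rich barcodes was chosen after the values were seen, and what gives rise to these Cd3d counts was not tested.

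Cd3e had 142 UMIs in 30 of 33 sham T cells, 169 in 31 of 34 on day 3, 137 in 16 of 19 on day 7 and 93 in 10 of 11 on day 14. Scaled to 1000000 gene UMIs of the T cells of a pool (CPM), this gave 627.5, 614 and 644 CPM in sham, day 3 and day 7 and 941 CPM on day 14, with a ratio of day 14 to sham of 1.5 (1.14 to 1.96). Cd3d stood at 725, 727, 554 and 830 CPM, and Cd3g at 862, 884, 1395 and 1417 CPM, in the same order of pools. Per cell, the median was 3, 4, 5 and 6 UMIs for Cd3e and 5, 6, 8 and 6 for Cd3g, and in both genes the ranges of single cells overlapped between all pools. Since these levels chose the cells, they are a description. Day 7 and day 14 T cells were also the deeper ones, with medians of 9810 and 8713 UMIs per cell against 5522 in sham and 6587 on day 3.

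T cells made up 9.68% of the 341 sham cells (6.75 to 13.3), 6.17% of the 551 day 3 cells (4.31 to 8.52), 8.80% of the 216 day 7 cells (5.38 to 13.4) and 6.21% of the 177 day 14 cells (3.14 to 10.9). The 4 intervals overlapped. The ratios of days 3, 7 and 14 to sham were 0.638 (0.383 to 1.06), 0.909 (0.488 to 1.65) and 0.642 (0.293 to 1.30), each with 1 inside its interval. These shares depend on the other cells of the sort, above all on S100-rich barcodes, of which sham held 79, day 3 held 256, day 7 held 77 and day 14 held 72. With those barcodes left out of the denominator, the T cell share was 12.6%, 11.5%, 13.7% and 10.5% in the 4 pools, and the day 3 ratio was 0.915 (0.550 to 1.52). The absolute number of T cells per cochlea is not known from shares.

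The chains of the receptor divided the T cells. A cell was called alpha beta where Trac, Trbc1 and Trbc2 together held at least 2 UMIs and more than Trdc and the gamma constant genes Tcrg-C1, Tcrg-C2 and Tcrg-C4, and gamma delta where the reverse held. In all, 75 T cells were alpha beta (77.3%), 16 were gamma delta (16.5%) and 6 were unresolved. Both sums reached 2 UMIs in 35 cells, so the larger sum often decided. Trbc1 and Trbc2 were found in most gamma delta cells too, with 128 UMIs of Trbc1 in 14 of the 16, while Trac had 15 UMIs in 7 of them. Of the 75 alpha beta cells, 65 held Trac. Variable segments were counted rarely by this 3′ assay: alpha segments were found in 15 alpha beta cells, spread over 14 of 128 segments, and in 0 gamma delta cells.

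**Figure D2:**
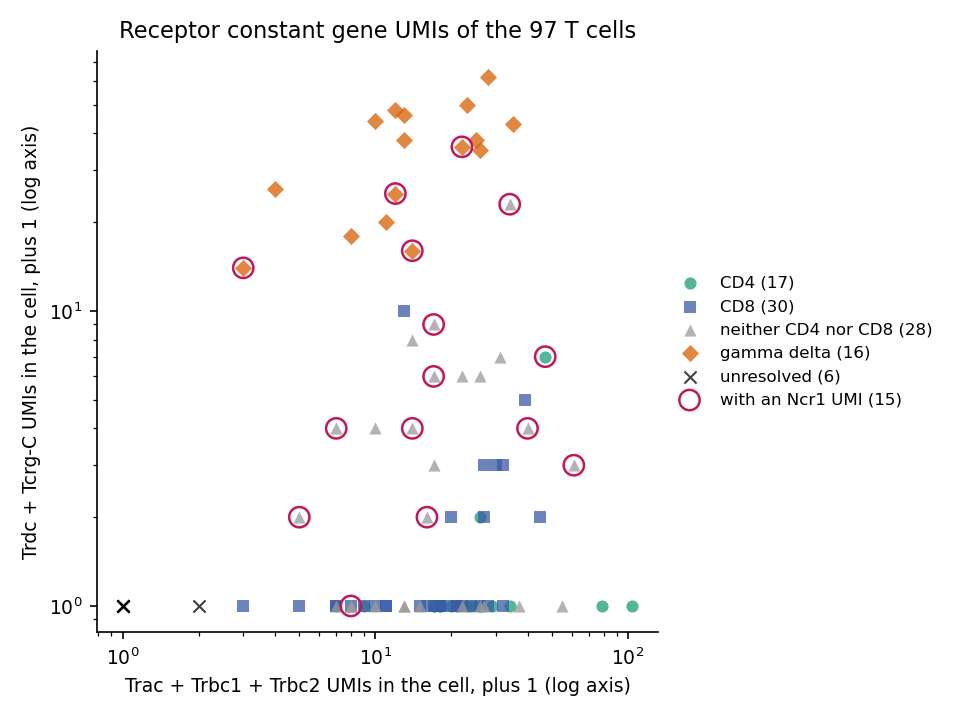
Each point is 1 of the 97 T cells, with the UMIs of Trac, Trbc1 and Trbc2 plus 1 on the horizontal and those of Trdc and the gamma constant genes plus 1 on the vertical log axis, marked by the type called, and rings show the 15 cells with Ncr1. The 16 gamma delta cells have the larger sum on the vertical axis and the 75 alpha beta cells on the horizontal.

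Gamma delta cells made up 12.1% of sham T cells (4 cells, 3.40 to 28.2), 20.6% on day 3 (7 cells, 8.70 to 37.9), 10.5% on day 7 (2 cells, 1.30 to 33.1) and 27.3% on day 14 (3 cells, 6.02 to 61.0). Alpha beta cells numbered 26, 25, 16 and 8 in the same order. For both types the intervals of all pools overlapped, and a difference in the makeup of the T cells between pools was not detectable at this number of cells.

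Alpha beta cells were then divided by Cd4 and by the CD8 genes Cd8a and Cd8b1. CD8 cells numbered 30, CD4 cells 17, and 28 cells held UMIs of neither. No T cell held both, or 0 of 97, which allows a share of up to 3.09% by 3 counts (exact upper limit 3.73%) of cells with UMIs of both, not of cells that express both. The coreceptor genes were found together: of 29 cells with Cd8a, 27 held Cd8b1, while Cd4 was found in 0 (a share of up to 0.806%, exact upper limit 0.987%) and Cd8a in 1 of the 372 B gate cells. CD4 cells were 9 of 33 in sham (27.3%, 13.3 to 45.5), 3 of 34 on day 3 (8.82%, 1.86 to 23.7), 4 of 19 on day 7 (21.1%) and 1 of 11 on day 14 (9.09%). CD8 cells were 11, 9, 5 and 5, or 33.3%, 26.5%, 26.3% and 45.5% (16.7 to 76.6 on day 14). Cells of neither kind were 6, 13, 7 and 2. The intervals overlapped for every kind. With each cell thinned to 3000 UMIs, Cd4 was found in 19.4% of sham T cells, 3.03% on day 3, 15.8% on day 7 and 9.09% on day 14, which left out 2 sham cells and 1 day 3 cell below that depth.

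**Figure D3:**
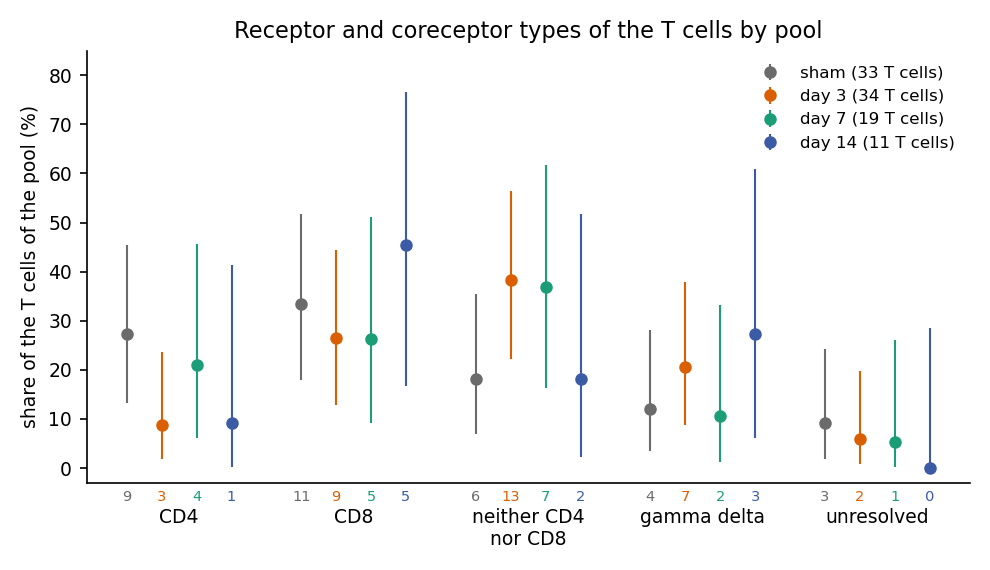
Points give the share of T cells (percent) of each type in the 4 pools, with exact 95% counting intervals as lines and the number of cells beneath. The intervals of each type overlap between all pools.

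CD8 and CD4 cells also differed in genes that played no part in the split. Themis, a signalling protein needed in thymic selection, had 29 UMIs in 21 of 30 CD8 cells, 8 UMIs in 4 of 17 CD4 cells and 0 UMIs in 16 gamma delta cells. Cd40lg, the helper ligand that stimulates B cells, had 27 UMIs in 8 CD4 cells and 0 in CD8 cells. Cd28, the costimulatory receptor, stood at 532 CPM in CD4, 177 in CD8 and 153 CPM in the cells of neither kind, and Cd5, which dampens receptor signals, at 350, 81.7 and 46.7 CPM. Cd40lg and Themis thus split in opposite ways between the 2 kinds. CD8 cells carried transcripts of naive T cells: Ccr7, the lymph node homing receptor, stood at 263 CPM, the transcription factor gene Lef1 at 268 and Klf2, the regulator of recirculation, at 703 CPM. Dapl1, a gene of naive CD8 cells, had 43 of its 56 UMIs in 14 CD8 cells. In all, 27 of 97 T cells held both Ccr7 and Lef1.

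Regulatory T cell genes were few. Foxp3, the defining transcription factor of regulatory T cells, had 13 UMIs in 4 sham cells, 4 in 2 day 3 cells, 2 in 1 day 7 cell and 0 on day 14. Of these 7 cells, 4 were CD4. Ikzf2 had 46 UMIs in 3 CD4 cells and 0 in CD8 cells, Tnfrsf4 had 16 in 7 CD4 cells and 0 in CD8 cells, and Ctla4 stood at 219 CPM in CD4 against 40.8 in CD8 cells. The numbers are too small to compare pools.

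The gamma delta cells fell into 2 sets that did not overlap, chosen after their values were seen. Cd163l1, a scavenger receptor of innate gamma delta cells, was found in 12 of the 16 (4 in sham, 3 on day 3, 2 on day 7 and 3 on day 14), with 153 UMIs, and in no other T, NK gate or B gate cell. The kinase gene Blk had 61 UMIs in all 12 of those cells. The receptor genes Il1r1 and Il23r had 45 UMIs in 10 and 15 UMIs in 9 cells. Il1r1, Il23r and Blk had 0 UMIs in other T cells. Il17a itself, the cytokine, had 30 UMIs in 6 of the 12 cells and in no other T cell: 4 UMIs in sham, 7 on day 3, 6 on day 7 and 13 on day 14. The set was thus present in all 4 pools, sham included.

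The same 12 cells held transcripts of tissue retention and few of circulation. Cxcr6, a chemokine receptor of tissue T cells, stood at 1195 CPM in 12 cells, Maf at 838 and the interleukin 7 receptor gene Il7r at 838 CPM. Pdcd1, the gene of the inhibitory receptor PD-1, had 65 of its 98 UMIs in 10 of these cells, and Ccr2, a receptor for monocyte chemokines, had 79 of 127 in 12. Klf2, Cd2, Cd28, Nkg7 and Ccl5 were at 0 UMIs in all 12. The signalling genes differed as well: Zap70 had 49 UMIs in 11 cells, but Lck had 2 UMIs in 1 cell, against 69 in 25 of 30 CD8 cells. For receptor segments, the delta segment Trdv4 had 51 UMIs in 11 of the 12. The gamma segments were sparser, with 8 UMIs of Trgv2 in 4 cells, 6 of Tcrg-V5 in 5, 5 of Tcrg-V6 in 4 and 3 of Tcrg-V1 in 2. Which segment a single UMI belongs to is uncertain among related segments.

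The remaining 4 gamma delta cells all held Ncr1, the activating receptor that marks NK cells, and all came from day 3. They held Ccl5 (216 UMIs in 4 cells), the chemokine of cytotoxic cells, Nkg7 (58 in 4), a protein of cytotoxic granules, and Xcl1 (42 in 4), which attracts dendritic cells. Cd163l1, Il17a and Trdv4 were at 0. Trdc stood at 1320 CPM in them, against 2233 in the cells with Cd163l1 and 152 in NK gate cells. Cd3e was found in all 4, with 25 UMIs.

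Ncr1 was found in 15 T cells in all, 2 in sham, 7 on day 3, 5 on day 7 and 1 on day 14. Of these, 11 were alpha beta, and 10 of the 11 had neither Cd4 nor Cd8. In the 11 cells, Nkg7 stood at 1694 CPM and Klrd1, the CD94 receptor chain, at 1291 CPM. Xcl1 had 320 UMIs in 10 of them and Itga1, a collagen-binding integrin of tissue lymphocytes, 36 UMIs in 10. Of the CD3 genes, which chose the cells, Cd3g was found in all 11 and Cd3e in 4, and Trac was found in 8. Of the 10 T cells without Cd3e, 7 held Ncr1. T cells with Ncr1 had a median of 9639 UMIs, against 6231 without. Of the T cells without Cd3e, 7 held Cd3g and no Cd3d, and Trbc1 was also found in 86.9% of NK gate cells. Whether a barcode with Ncr1 held 1 cell with both programmes, a T and an NK cell, or an NK cell alone was not tested. Values of the cytotoxic genes and some list medians below are therefore also given without the 15 cells with Ncr1.

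The 6 unresolved cells were 3 in sham, 2 on day 3 and 1 on day 7. Several held myeloid transcripts. Il1b, the interleukin 1 beta gene, had 155 UMIs in 4 of the 6, of 195 in all T cells, and Lyz2, the lysozyme of myeloid cells, had 128 UMIs in 3. Tyrobp, an adaptor of myeloid and NK receptors, was found in 5. The 6 cells held 0 UMIs of Trbc1, Trbc2 and Trdc, 1 of Trac and 11 of Cd3e in 4 cells. In sham, 1 of them, a cell of 2653 UMIs, held all 3 CD3 genes and 7 UMIs of Cd8a and Cd8b1 together. Below, ratios of named genes that move by over 1.5 times without the 6 cells are also given that way.

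For the comparison of conditions, UMIs were summed over the T cells of a pool, which gave 226298 UMIs in sham, 275047 on day 3, 212860 on day 7 and 98802 on day 14. Of 3318 genes with at least 20 UMIs in day 3 and sham together, 187 were at least 2-fold higher on day 3 (5.64%) and 151 at least 2-fold lower (4.55%). On day 7, 198 of 2975 genes were higher (6.66%) and 172 lower (5.78%), and on day 14, 138 of 2237 were higher (6.17%) and 198 lower (8.85%). These shares are the background for each gene list below. Counting error alone can carry genes of 20 UMIs past 2-fold: 137 of the 187 and 90 of the 151 genes on day 3 had an interval clear of 1, 134 and 111 on day 7, and 99 and 98 on day 14. A single cell held at least 50% of the UMIs of the higher pool in 44 of the 187 genes higher on day 3, 20 of those on day 7 and 6 of those on day 14. The median gene stood at a log2 ratio of 0.02, 0.05 and 0.04 on the 3 days. Fewer cells of a kind and less RNA per cell of it cannot be told apart in such sums.

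**Figure D4:**
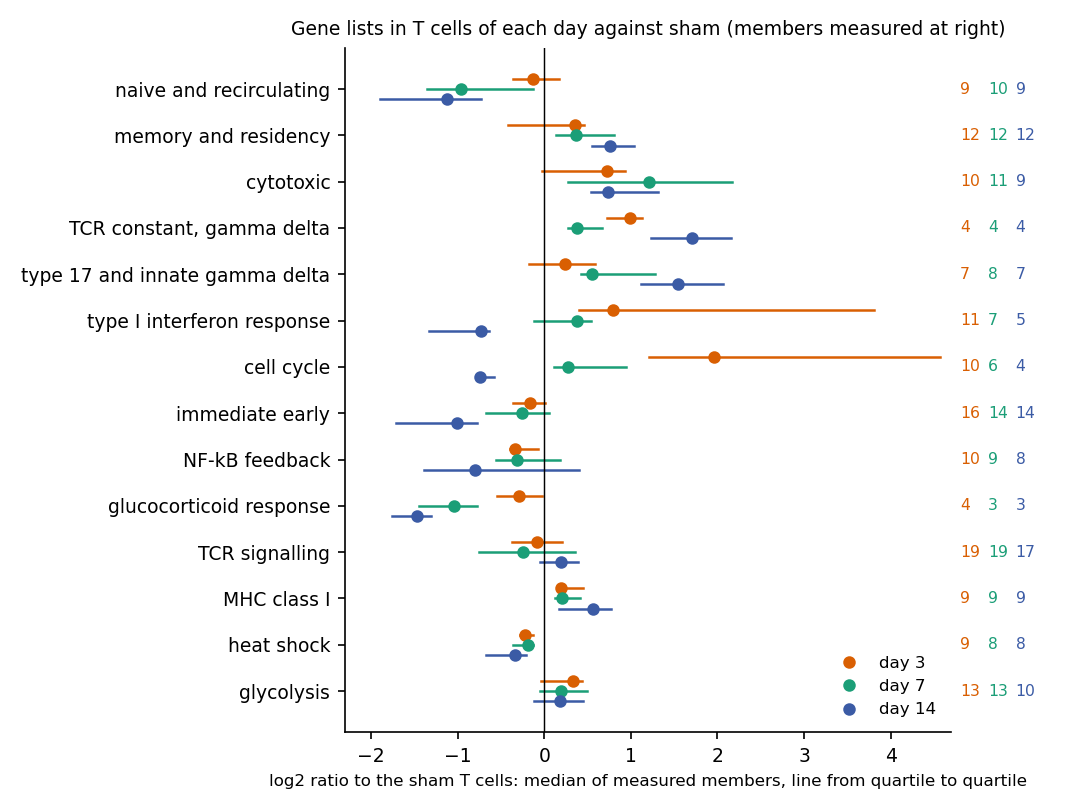
Points give the median log2 ratio to sham over the measured members of 14 gene lists on days 3, 7 and 14, lines run from the lower to the upper quartile, and the number of members measured stands at the right. The naive list lies below 0 on days 7 and 14, the cytotoxic list is highest on day 7 (1.21), and the immediate early list is lowest on day 14 (-1.01). Without cells with Ncr1 or Klrb1c (not drawn), the cytotoxic list is lowest on day 7 (0.65) and highest on day 14 (1.31).

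Genes of naive and recirculating T cells were lower in the later pools. Of 10 list members measured on day 7, 5 were at least 2-fold lower and 0 higher, with a median log2 ratio of -0.96. On day 14 it was 6 lower and 0 higher of 9, with a median of -1.13. On day 3 it was 1 lower of 9, with a median of -0.12. Klf2 had 119 UMIs in 24 of 33 sham cells, 172 in 27 of 34 on day 3, 64 in 11 of 19 on day 7 and 14 in 3 of 11 on day 14. That is 526, 625, 300.7 and 142 CPM, and a ratio to sham of 1.19 (0.936 to 1.51), 0.572 (0.415 to 0.781) and 0.269 (0.143 to 0.470). Klf2 was thus lower on both later days and not on day 3.

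Lef1 stood at 274 CPM in sham, 174 on day 3, 127 on day 7 and 91.1 on day 14, with a day 14 ratio of 0.332 (0.145 to 0.673). In cells thinned to equal depth, as for Cd4, Lef1 was found in 38.7%, 33.3%, 31.6% and 36.4% of T cells, in the same order. Ccr7 was then found in 32.3%, 18.2%, 31.6% and 9.09%, and Il7r in 64.5%, 54.55%, 42.1% and 54.55%. For each gene the intervals of these shares overlapped between all pools. The share of cells with Lef1 was thus alike in the pools, and that of Ccr7 on day 7 stood near sham. Il7r was lower on day 7 (197 against 579 CPM, ratio 0.341, 0.235 to 0.486) and not on day 14, at 658 CPM. Dapl1 had 33 UMIs in sham, 10 on day 3, 13 on day 7 and 0 on day 14. With 3 UMIs put in place of 0, its day 14 ratio was 0.208 (exact upper limit 0.271). The members therefore did not share 1 course. In the other cells of the same pools, the list had a median of -0.04 on day 7 and 0.09 on day 14. Among alpha beta cells alone, the naive list was at -1.21 on day 7 and -0.99 on day 14. The alpha beta cells still held the 5 day 7 cells with Ncr1. Without cells with Ncr1 or Klrb1c, the day 7 median of the naive list was -0.50. The median stayed below 0 on these 2 days under all 17 alternatives run, from -1.21 to -0.30 and from -1.70 to -0.81.

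Cytotoxic and NK receptor genes were higher in the T cells of day 7. Of 11 members of the cytotoxic list, 7 were at least 2-fold higher and 1 lower, with a median log2 ratio of 1.21. It was 2 higher and 1 lower of 10 on day 3 (median 0.73), and 4 higher and 2 lower of 9 on day 14 (median 0.73). Nkg7 had 76 UMIs in 17 sham cells, 178 in 21 day 3 cells, 213 in 14 day 7 cells and 94 in 7 day 14 cells. That is 336, 647, 1001 and 951 CPM, and the ratios to sham were 1.93 (1.46 to 2.56), 2.98 (2.28 to 3.93) and 2.83 (2.07 to 3.88). All 3 days stood above sham for Nkg7. With cells thinned to 3000 UMIs, Nkg7 was found in 35.5% of sham, 51.5% of day 3, 68.4% of day 7 and 63.6% of day 14 T cells, against 0.824% of B gate cells.

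Klrd1 followed another course, with 97.2 CPM in sham, 327 on day 3, 592 on day 7 and 142 on day 14, a day 7 ratio of 6.09 (3.85 to 10.1). Klrk1, the activating receptor NKG2D, had 11 UMIs in 5 sham cells, 60 in 14 on day 3, 78 in 8 on day 7 and 17 in 4 on day 14, with ratios of 4.49 (2.34 to 9.47), 7.54 (3.99 to 15.7) and 3.54 (1.56 to 8.36). Ctsw, the lymphocyte protease cathepsin W, had a day 7 ratio of 3.33 (2.28 to 4.97), and Serpinb9, which protects cytotoxic cells from their own granzyme B, one of 11.5 (4.63 to 36.8). Both receptors thus stood highest on day 7, where 54 Serpinb9 UMIs came from 9 cells, 44.4% of them from 1 cell. Without cells over 3 times the median UMIs, the day 7 median of the cytotoxic list was 0.43. The day 7 ratios were then 3.46 for Klrd1, 5.42 for Klrk1 and 1.92 for Ctsw. Gzmb had 3, 12, 50 and 1 UMIs, but 94.0% of the day 7 UMIs came from 1 cell.

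Ccl5 went against the list on day 7. It stood at 924 CPM in sham, 1720 on day 3, 390 on day 7 and 2287 on day 14, and the UMIs of sham, day 7 and day 14 came to 45.9%, 50.6% and 48.2% from 1 cell each. The ratios were 1.86 (1.58 to 2.20), 0.422 (0.323 to 0.547) and 2.48 (2.04 to 3.00), intervals that do not cover the spread between so few cells. When at least 1 Cd3e UMI was asked of each cell, the day 7 ratio was 1.93. NK cell markers stood above sham on days 3 and 7, as the cytotoxic list did, but below sham on day 14. The cytotoxic list summed to 2311, 3839, 4097 and 4524 CPM in sham, day 3, day 7 and day 14. The 10 NK genes summed to 619, 1087, 1640 and 182 CPM in the T cells of these pools. Their UMIs lay in 13, 13, 8 and 2 cells, with Klra8 at 0 in all pools. Ncr1, Fcer1g and Tyrobp, adaptors and receptor of NK cells, gave most of the NK sum. Without the cells with Ncr1 or Klrb1c, the cytotoxic median was 0.87 on day 3, 0.65 on day 7 and 1.31 on day 14. Day 7 was then the lowest of the 3 days, not the highest. Klrd1 had 207 of its 252 UMIs in the 15 T cells with Ncr1, and without them it did not reach 20 UMIs over day 7 and sham, so it has no day 7 ratio there. The day 14 ratio became 13.1 for Ccl5 and 4.23 for Nkg7. The day 7 ratio was then 6.66 for Klrk1, 15.8 for Serpinb9, 2.47 for Nkg7 and 2.14 for Ctsw, but 1.21 for Fcer1g and 1.14 for Lgals3, a galectin gene of activated and myeloid cells that stood at 3.78 (2.45 to 6.03) with them. Fcer1g stood at 3.56 (2.38 to 5.46) with them, and at 5.88 without the unresolved cells instead.

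Genes of the type I interferon response were higher on day 3. Of 11 members measured, 5 were at least 2-fold higher and 0 lower, with a median log2 ratio of 0.79. Isg15, a ubiquitin-like modifier, had 3 UMIs in 3 sham cells, 46 in 9 day 3 cells, 33 in 6 day 7 cells and 1 in 1 day 14 cell, and its day 3 ratio was 12.6 (4.05 to 63.4). Irf7, the factor that amplifies the response, had 1 UMI in sham, 21 in 9 day 3 cells, 15 in 10 day 7 cells and 2 in day 14 cells. Rtp4, an interferon-induced chaperone, had 1, 19, 6 and 1 UMIs, and Ifi209 and Trim30a were higher on day 3 by 7.95 (2.46 to 40.8) and 6.38 (2.25 to 24.9). Isg15 and Irf7 were thus near 0 in sham and day 14 T cells, and each was present in 9 of 34 cells on day 3.

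On day 7, 1 of 7 members was higher and 1 lower (median 0.38), and on day 14 it was 0 higher and 2 lower of 5 (median -0.73). Ifi27l2a, another interferon-induced gene, did not keep to the others. It stood at 597, 756, 258 and 40.5 CPM, with 74.8% of the sham UMIs in 1 cell. The day 3 difference was also seen outside T cells. In all other cells of the pools the same list had a median log2 ratio of 1.92 on day 3. That median covers 20 measured members, against 11 in T cells, so the 2 medians are not of the same genes. In alpha beta T cells alone the median was 0.47. The summed type I interferon response list in T cells stood at 1273 CPM in sham and 2349 on day 3. In B gate cells it stood at 448 CPM in sham and 646 on day 3, and in NK gate cells at 798 and 1256.

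Gamma delta genes were higher on day 14, where 3 of 11 cells were of this type. Of the 4 constant genes, 3 were at least 2-fold higher on day 14 and 0 lower, with a median log2 ratio of 1.70. On day 3 it was 2 of 4, Trdc and Tcrg-C2 (median 0.99), and on day 7 it was Tcrg-C2 alone (median 0.38). Trdc had 55 UMIs in 5 sham cells, 141 in 11 day 3 cells, 69 in 5 day 7 cells and 102 in 5 day 14 cells, which is 243, 513, 324 and 1032 CPM and a day 14 ratio of 4.25 (3.03 to 6.01). Trdc lies at chr14:54142851-54148868, within the locus of the alpha chain genes. Tcrg-C2 had a day 14 ratio of 5.15 (2.13 to 13.7). Of 7 genes of the type 17 and innate gamma delta list, 5 were higher on day 14 (median 1.55), 3 of 8 on day 7 (median 0.55) and 0 of 7 on day 3 (median 0.25). Cd163l1 had 38, 37, 32 and 46 UMIs in 4, 3, 2 and 3 cells, so its day 14 ratio of 2.77 (1.77 to 4.38) went with 3 cells among fewer T cells.

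Genes of memory and residency leaned the same way on day 14, with 3 of 12 at least 2-fold higher and 0 lower (median 0.76). On days 3 and 7 it was 2 of 12 higher each (medians 0.35 and 0.37). Without cells with Ncr1 or Klrb1c, these 2 medians were 0.15 and -0.02. Cxcr6 stood at 283, 251, 423 and 638 CPM, a day 14 ratio of 2.25 (1.57 to 3.24), and Itga1 at 39.8, 90.9, 117 and 132 CPM, a day 14 ratio of 3.31 (1.31 to 8.77). Ly6c2, a surface protein of memory CD8 cells, had 22 UMIs in 3 sham cells, 85 in 12 on day 3, 90 in 7 on day 7 and 52 in 7 on day 14, with ratios of 3.18 (1.97 to 5.34), 4.35 (2.70 to 7.28) and 5.41 (3.23 to 9.36). Ly6c1 and Ly6c2 are close copies, and the counts of the pair are uncertain. Ccr2 and Pdcd1 had day 14 ratios of 4.83 (2.69 to 9.0) and 4.43 (2.30 to 8.89), from 38 UMIs in 4 and 29 in 5 cells. Most UMIs of Ccr2 and Pdcd1 belong to the gamma delta cells with Cd163l1 described above. Without the unresolved cells, Ly6c2 stood at 8.49 on day 7 and 9.56 on day 14, and in alpha beta cells alone its day 14 ratio was 12.6.

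**Figure D5:**
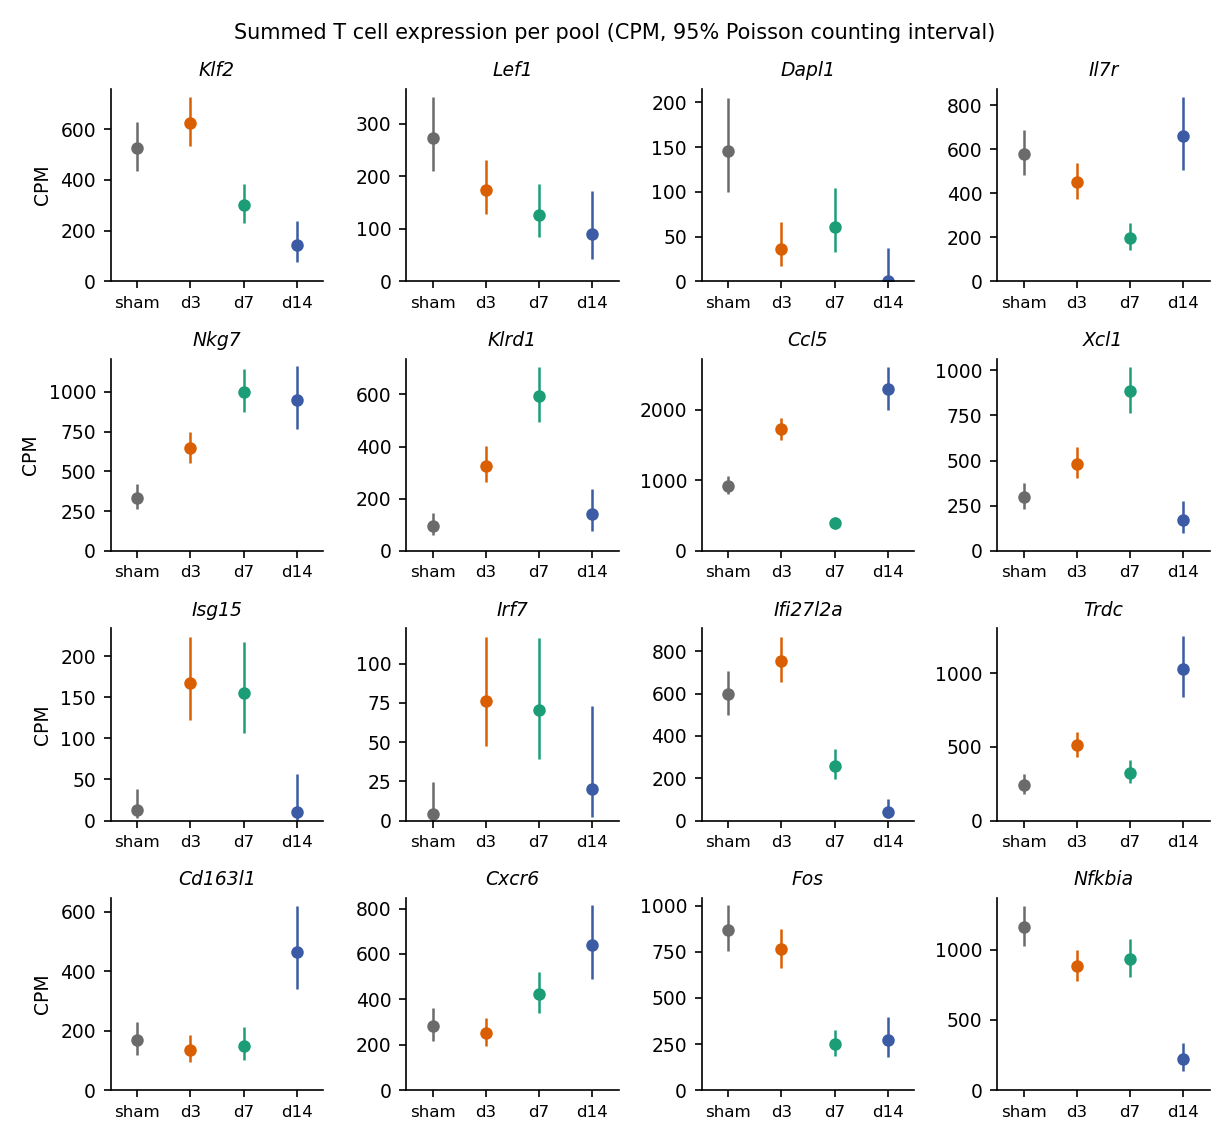
Each panel shows the level of 1 gene (CPM, linear axis from 0) in the T cells of the 4 pools, with exact Poisson 95% intervals as lines. Klf2 is lowest, at 142 CPM, on day 14, Klrd1 is highest, at 592 CPM, on day 7 and Trdc is highest, at 1032 CPM, on day 14.

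Immediate early genes, which turn on within minutes of stimulation or of tissue handling, were lower on day 14. Of 14 members, 7 were at least 2-fold lower and 0 higher, with a median log2 ratio of -1.01, against 0 higher and 2 lower of 14 on day 7 (median -0.26) and 2 higher and 1 lower of 16 on day 3 (median -0.16). Fos had 197 UMIs in 21 sham cells, 210 in 21 day 3 cells, 53 in 11 day 7 cells and 27 in 5 day 14 cells. Its CPM were 870.5, 764, 249 and 273, and the ratio to sham was 0.286 on day 7 (0.207 to 0.389) and 0.314 on day 14 (0.202 to 0.471). Without the unresolved cells, these 2 ratios were 0.484 and 0.520. Fos was thus lower on both later days, less so once those cells were set aside. Jun and Egr1 stood at 433 and 243 CPM in sham and 132 and 40.5 on day 14, with ratios of 0.304 (0.156 to 0.544) and 0.167 (0.0438 to 0.451). Egr1 had 84 UMIs in 4 unresolved cells, and without them it did not reach 20 UMIs over day 14 and sham. The day 14 median of the immediate early list was then -0.73. Junb did not share this, at 2925, 2796, 2744 and 2409 CPM. In the other cells of the pools the list had a median of -0.39 on day 7 and -0.13 on day 14.

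Nfkbia, the inhibitor that NF-kB itself induces, had 263 UMIs in 29 of 33 sham cells and 22 in 10 of 11 day 14 cells, at 1162, 883, 935 and 223 CPM over the 4 pools, and a day 14 ratio of 0.192 (0.118 to 0.296). The NF-kB feedback list held 3 lower and 1 higher of 8 on day 14 (median -0.80) and 0 past 2-fold of 10 on day 3. Dusp2, a phosphatase induced by receptor signals, stood at 393, 356, 329 and 70.9 CPM. Of the glucocorticoid response list, all 3 genes measured on day 14 were at least 2-fold lower: Tsc22d3 (ratio 0.452, 0.235 to 0.808), Txnip (0.363, 0.20 to 0.618) and Ddit4 (0.241, 0.0272 to 0.999). On day 7, 2 of 3 genes of this list were at least 2-fold lower, Ddit4 and Txnip (median -1.05). Without cells with Ncr1 or Klrb1c, that median was -0.46. On day 3, 0 of 4 were past 2-fold (median -0.29). The day 14 sums come from 11 cells and the number of cells, not the UMIs alone, limits them.

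Few genes of T cell receptor signalling passed 2-fold. Of 19 measured on day 3, 0 were at least 2-fold higher and 1 lower, of 19 on day 7 it was 0 and 2, and of 17 on day 14 it was 1 and 0, with medians of -0.09, -0.24 and 0.20. The exceptions were Cd5, lower on day 3 (0.443, 0.248 to 0.772) and day 7 (0.300, 0.139 to 0.597), Themis, and Cd247, the zeta chain of CD3, higher on day 14 (2.81, 1.70 to 4.67). Cd247 had 67 of its 162 UMIs in the gamma delta cells with Cd163l1. Of 9 MHC class I genes, Tap2, a subunit of the peptide transporter, was past 2-fold on day 3 (2.0, 1.10 to 3.84) and day 14 (3.15, 1.58 to 6.42), and none was on day 7. The medians of the list were 0.19, 0.21 and 0.57, with 9, 9 and 8 of the 9 above sham on days 3, 7 and 14. B2m stood at 2152, 2487, 2307 and 2419 CPM over the 4 pools. Glycolysis and heat shock genes had medians between -0.34 and 0.33 on all 3 days.

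Cell cycle genes were higher on day 3 in few cells. Of 10 measured, 8 were at least 2-fold higher (median 1.97), yet Mki67, a marker of cycling cells, had 28 UMIs in 3 day 3 cells, 1 UMI each in sham and day 7, and 0 on day 14. Of the day 3 UMIs of Top2a and Birc5, 96.6% and 90.9% came from 1 cell. With the top cell of each gene taken out of each pool, the median was 0.45. Tubb5, a tubulin gene that is also expressed outside the cycle, was found in 25 of 34 day 3 cells against 20 of 33 in sham. In T cells as a whole, Mki67 was found in 5 of 97, against 78 of 372 B gate cells.

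Cytokine genes were sparse. Ifng, the interferon gamma gene, had 44, 47, 23 and 4 UMIs, with 68.2% of the sham UMIs in 1 cell. Xcl1 stood at 296, 484, 883 and 172 CPM, and 61.7% of the day 7 UMIs lay in 1 cell. Of the cytokine list, 1 of 7 members was higher on day 3, 2 of 9 on day 7 with 1 lower, and 1 of 6 on day 14. Il10 and Il22 had 0 UMIs in all T cells.

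The genes with the interval farthest from 1 over all genes differed by day, and some, such as Dapl1, Zfp36 and Tyrobp, are also members of lists. On day 3, Klrc2, a receptor chain of the CD94 family, was higher by 5.29 (2.37 to 13.9), from 7 UMIs in 5 sham cells to 45 in 8 day 3 cells. Il1b and the myeloid factor gene Cebpb were higher by 3.25 (2.27 to 4.74) and 3.16 (2.19 to 4.67). Il1b rested on 2 sham and 3 day 3 cells, and without the unresolved cells the ratio was 28.2 for Il1b and 1.81 for Cebpb. Since most Il1b UMIs lay in the unresolved cells, the 28.2 rests on the few UMIs left and was given no interval. Genes lower on day 3 included Larp4, an RNA-binding protein (0.165, 0.0409 to 0.491), Dapl1 (0.249, 0.110 to 0.518) and Ramp1, a subunit of the receptor for the neuropeptide CGRP, with 41 UMIs in sham and 18 on day 3 (0.361, 0.195 to 0.643). Another 6 genes low on day 3 (Fam69a, Fam133b, Smarcc1, Usp15, Rfx7 and Zfp281) had ratios between 0.173 and 0.318.

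On day 7, Ly6c1 stood at 7.44 (2.22 to 39.0). The lowest genes included Tgif1, a transcriptional repressor, with 22 UMIs in 12 sham cells and 2 in 2 day 7 cells (0.0966, 0.0110 to 0.393, or 0.0471 without the unresolved cells), Slamf6, a receptor of naive and progenitor-like T cells (0.19, 0.0572 to 0.498), and Itga4, an integrin used to leave blood vessels (0.337, 0.193 to 0.566). Utrn, Lmnb1 and Rbm5 stood at 0.230, 0.22 and 0.259. On day 14, Slc38a1, a glutamine transporter, was higher by 3.44 (2.18 to 5.47), from 34 UMIs in 15 sham cells to 51 in 9 day 14 cells, and Ly6g5b by 7.64 (2.96 to 23.2). Klrc2 was higher here too, by 5.56 (2.19 to 15.9). Tyrobp had 61 UMIs in sham and 1 on day 14, a ratio of 0.0376, or 0.0697 without the unresolved cells. Cd9, a tetraspanin, had 21 in 14 sham cells and 0 on day 14. With 3 UMIs put in place of 0, the Cd9 ratio was 0.327 (exact upper limit 0.440). Zfp36, which destabilises cytokine messages, stood at 393 and 101 CPM in sham and on day 14.

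Markers of other cells in the sort were counted in the T cells. The neutrophil list was found in all 97 T cells, with 2 to 53 UMIs per cell, and summed to 1639, 1756, 996 and 1387 CPM over the 4 pools. The macrophage list was found in 17, 20, 10 and 5 cells and summed to 300.5, 2065, 141 and 101 CPM, and 76.8% of its 568 day 3 UMIs lay in 1 cell. Lyz2 alone, in cells thinned to 3000 UMIs, was found in 23.4% of T cells, 20.3% of B gate and 16.0% of NK gate cells. The B cell list stayed between 60.7 and 155 CPM with Ms4a1 at 0. The early thymocyte list had 4, 6, 4 and 1 UMIs, 14 of the 15 from Cd1d1, with Ptcra, Rag1 and Dntt at 0. The innate lymphoid 2 list summed to 225, 240, 211 and 243 CPM, most of it Gata3 (92 UMIs) and Rora (83 UMIs), which T cells also express, with Il5, Il13 and Klrg1 at 0.

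The cochlear non-immune list summed to 44.2, 109, 122 and 111 CPM. Mbp, the myelin basic protein gene, held 68 of its 77 UMIs and stood above 2-fold on days 3, 7 and 14, by 2.30 (1.09 to 5.32), 2.13 (0.95 to 5.09) and 2.29 (0.856 to 6.13), while Ttr, Coch and Col1a1 were at 0. The basophil or mast cell list had 42 UMIs in 4 cells, of which 27 lay in 1 day 7 cell, a day 7 ratio of 3.19 (1.46 to 7.71), with Fcer1a at 0. The erythroid list had 1 UMI and the platelet list 8. What part these transcripts have in the differences between pools was not tested.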

How the data were processed

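The values are UMI counts of genes in barcodes, as deposited, written by Cell Ranger 3.1.0 per the file headers, on genome build mm10 per the submitters' processing notes. The labels name 2 kit versions, v2 and v3. The sources used here do not say how cells were called. Both matrices hold the same 1556 barcodes with identical gene counts over 31053 genes, so the genes were read once and the hashtags from the other. Of these, 1377 had at least 200 genes and at most 10% mitochondrial counts, and 1285 of them a top hashtag with at least 10 UMIs and 80% of hashtag UMIs (341 sham, 551 day 3, 216 day 7, 177 day 14), with median depths of 6528 to 8378 UMIs. Barcodes with mixed hashtags were left out as doublets between pools, and no doublet caller was run. None of the 92 passing barcodes without a single hashtag met the T cell gate.

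The members and the gene lists (22 pathway and 10 other-cell lists) were chosen with earlier results of these data known. UMIs were summed per pool and divided by the total (CPM). Ratios to sham used genes that reached 20 UMIs over the 2 pools, with exact conditional Poisson 95% intervals, 3 UMIs in place of 0, and Clopper-Pearson intervals for shares. The labels give 1 pool per condition, so no test was made, and intervals cover counting error only. Named genes are, per day, the 10 highest and 10 lowest by the bound nearest to 1, with a ratio of at least 2 either way and under 50% of UMIs in 1 cell. Mitochondrial, ribosomal protein, unnamed, haemoglobin, immunoglobulin, Xist, Y-linked and receptor variable segment genes were not eligible. From each list, the members with most UMIs or the farthest interval were named. Some genes that met these rules are not reported here. The alternatives changed the gate, the filters, the scaling and the cells. GENCODE vM21 held 30934 gene IDs. The scripts, tested on simulated data, ran in Python 3.11.15 with numpy 2.4.6, scipy 1.17.1, pandas 2.3.3 and matplotlib 3.10.9.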

Additional observations from a re-analysis of the deposited data

How the results depend on the processing

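With 97 T cells, counting error and the number of cells limit every value, and 1 pool per condition allows no test. No paired analysis was possible because each condition is 1 pool without replicates. Without the S100 ceiling the gate took in 341 barcodes, T cell share was 22.0% in sham, 30.1% on day 3, 27.3% on day 7 and 23.2% on day 14, and the gamma delta type share of day 3 was 4.22%. Genes higher in day 3 T cells than in sham then numbered 363, genes lower in day 3 T cells than in sham 519, and genes higher in day 14 T cells than in sham 208. The Cd9 ratio of day 14 reversed to 1.11. With S100-rich barcodes out of the denominator, the T cell share was 11.5% on day 3 and 13.7% on day 7. Without cells with Ncr1 or Klrb1c, 88 genes were left of the count of genes higher in day 7 T cells than in sham, and with the top cell of each gene left out, 96 were lower on day 3 and 129 higher on day 7. In alpha beta cells alone, 64 were higher on day 14.

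With a minimum of 10 UMIs, genes higher and lower numbered 586 and 443 on day 3, 537 and 481 on day 7, and 442 and 490 on day 14; with 40 UMIs they numbered 51 and 28, 45 and 53, and 35 and 64, since fewer genes are measured. Of 3 alternatives chosen after seeing the data, at least 1 Cd3e UMI gave 124 genes higher on day 7 and reversed the Ccl5 ratio of day 7 to 1.93, and leaving out gamma delta cells gave 89 genes higher on day 14. The cause of these shifts was not tested. In all, 42 of 48 T cell shares and 47 of 48 gamma delta shares moved by less than their counting interval, 81 of 102 gene counts stayed within 1.5 times, and 822 of 966 list medians stayed within the quartiles of the list. Of 59 list medians, 31 changed sign under at least 1 alternative, most of them near 0. Without the S100 ceiling, the median of the cell cycle list on day 14 went from -0.74 to 3.98 and that of the cytotoxic list on day 3 from 0.73 to -0.56, and without cells with Ncr1 or Klrb1c that of cytokines of T cells on day 14 went from -0.71 to 0.38.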
